A study of Mus musculus with 13 samples.

Results

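The genes described here are 10 markers and regulators of the epithelial-to-mesenchymal transition (EMT): the cadherins Cdh1, Cdh2 and Cdh11, the epithelial adhesion gene Epcam, the transcription factor genes Snai1, Snai2, Twist1, Zeb1 and Zeb2, and the intermediate filament gene Vim. They were taken by name from the 45250 genes of the expression tables, each matched 1 row, and all 10 were among the 13802 genes that passed the filter on low values. The RNAseq data came from cells made by differentiating mouse embryonic stem (ES) cells in culture. Flk-1+ cells, which contain haemangioblasts, the common precursors of blood and endothelium, were enriched from embryoid bodies by magnetic sorting and are represented by 3 libraries each of WT, Lmo2-/- and Tal1-/- genotype. Haemogenic endothelium 1 (HE1), sorted as Tie2+, Kit+ and CD41- after further culture of Flk-1+ cells in blast medium, is represented by 2 libraries each of WT and Lmo2-/- genotype. No allele or treatment other than these was given. The study's main methods name a single ES cell line for each genotype. Its supplement describes a further Lmo2-/- line with inducible LMO2, made for a rescue experiment. No further line is named for the RNAseq, so a difference between genotypes cannot be told apart from a difference between lines.

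In an EMT, epithelial cells lose E-cadherin junctions and gain the motility and matrix of mesenchyme, as happens when mesoderm leaves the primitive streak. The Snail factors (Snai1, Snai2), the Zeb factors (Zeb1, Zeb2) and Twist1 are its classical inducers, and Snail and Zeb proteins repress Cdh1 by binding E-boxes of the sequence CAGGTG or CACCTG. Endothelium, including haemogenic endothelium, holds its junctions together with VE-cadherin (Cdh5), and LMO2 and TAL1 belong to the same DNA binding complex, in which LMO2 is the bridge and TAL1 the part that contacts E-boxes.

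The 250 bases before the RefSeq start sites (GRCm38.p6) of Snai1 and Epcam are shown because both genes were listed at 0 in every HE1 library labelled WT. E-boxes, searched as CANNTG on either strand, are in capitals.
Snai1 (chr2:167537945-167538194, plus strand): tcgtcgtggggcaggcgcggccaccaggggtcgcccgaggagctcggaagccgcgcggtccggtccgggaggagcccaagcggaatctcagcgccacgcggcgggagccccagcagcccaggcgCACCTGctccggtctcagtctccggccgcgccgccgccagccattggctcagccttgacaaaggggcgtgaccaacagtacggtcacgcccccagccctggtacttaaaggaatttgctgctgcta
Epcam (chr17:87635729-87635978, plus strand): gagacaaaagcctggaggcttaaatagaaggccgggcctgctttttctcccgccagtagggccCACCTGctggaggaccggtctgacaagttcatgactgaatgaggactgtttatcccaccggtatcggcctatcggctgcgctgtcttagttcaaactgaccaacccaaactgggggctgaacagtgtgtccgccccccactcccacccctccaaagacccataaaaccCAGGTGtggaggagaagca
The Snai1 window held 1 E-box, 126 bases before the start, and the Epcam window held 2, which began 187 and 19 bases before it. All 3 were of the CAGGTG or CACCTG kind. A window of this length held at least 1 CANNTG in 66.2 percent of all 32851 RefSeq promoters, and a CAGGTG or CACCTG, each of which is also a CANNTG, in 17.2 percent. RefSeq windows were found for 5 members, and those of Vim, Zeb2 and Twist1 held no CANNTG. These letters describe the sequence and say nothing about binding.

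The depth behind each value is unknown, because the files hold FPKM (fragments per kilobase of transcript, normalised for library size) and no counts. Lmo2-/- HE1 replicate 1 stood apart, with 9694 genes above 0 against 11861 to 15641 in the other libraries, and with 183 of the 4062 genes of median FPKM above 10 listed at 0, against up to 55 elsewhere. The targeted gene Lmo2 had 21.6 to 30.8 FPKM in WT and 2.17 to 6.48 FPKM in Lmo2-/- Flk-1+ libraries. In HE1 it had 4.30 and 20.6 FPKM in the libraries labelled WT and 6.42 and 0 FPKM in those labelled Lmo2-/-, so every genotype direction in HE1 rests on the labels. The endothelial genes Cdh5, Tek and Pecam1 were above 108 FPKM in all 4 HE1 libraries and at most 5.48 FPKM in Flk-1+ libraries, while Kdr, which encodes Flk-1, was above 68 FPKM in all 13. Itga2b, which encodes the CD41 used to exclude cells from HE1, was at 10.4 to 19.8 FPKM in 3 HE1 libraries and listed at 0 in the other.

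Genes were tested with limma on log2(FPKM + 1) over all 13 libraries in 1 fit, so that every log2 fold change below is on that scale and understates changes of weakly expressed genes. A gene was called at a Benjamini-Hochberg adjusted p below 0.05 if the mean FPKM of any group compared was also above 10. Under this rule Cdh1, Epcam and Twist1, with group means of at most 3.56, 2.76 and 3.92 FPKM, could not be called in any comparison. Nor could Snai2 in the Flk-1+ comparisons, where its group means were at most 1.89 FPKM. The study's methods describe the libraries as independent and as biological replicates. An exact permutation test cannot go below p = 0.10 for 3 against 3 or 2 against 3 libraries, nor below 0.333 for 2 against 2, so it cannot separate any of these groups at 0.05.

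**Figure D1:**
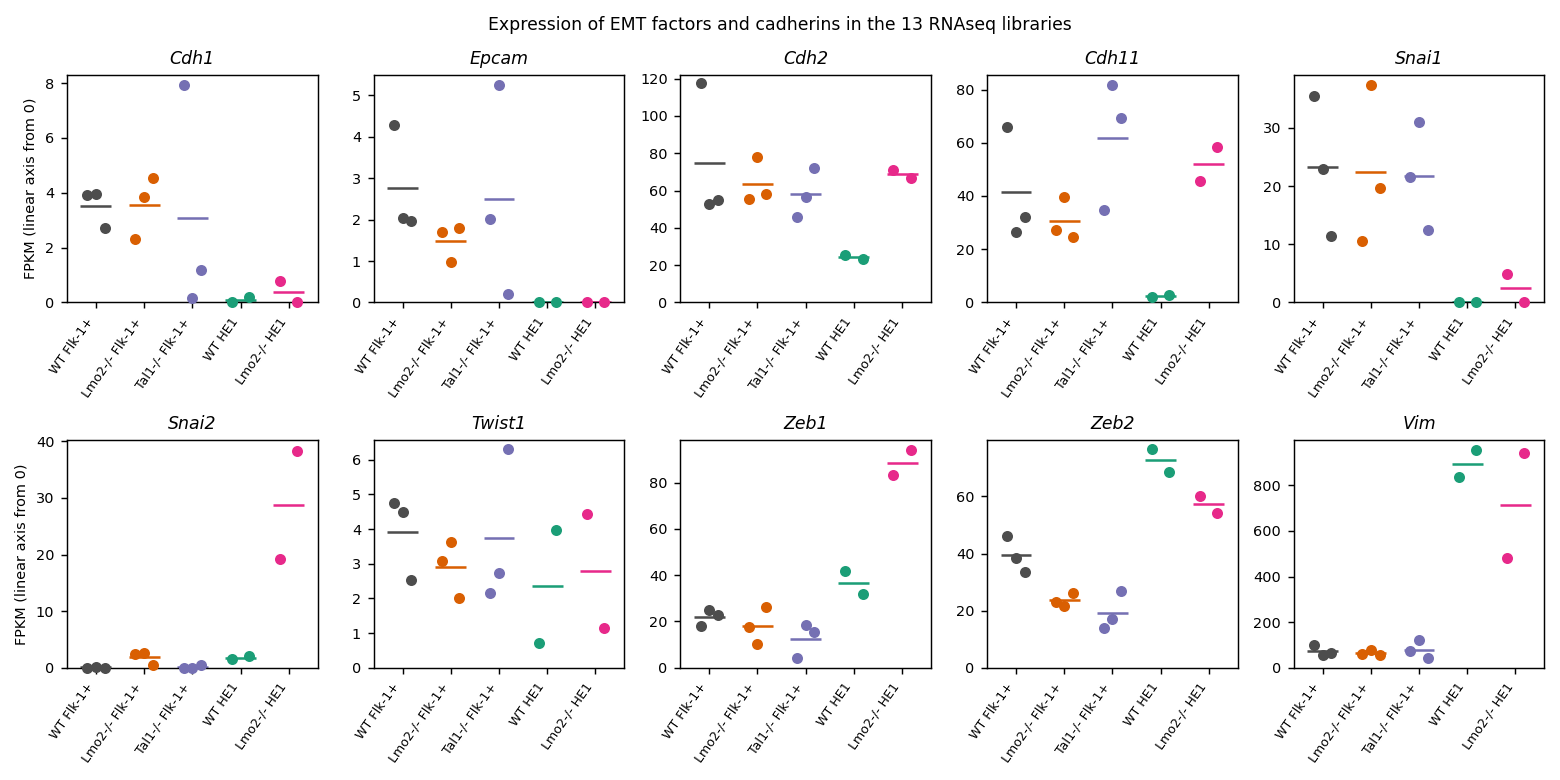
FPKM of the 10 genes (vertical axes, linear from 0) in the 13 libraries, in 5 groups along the horizontal axis. Points are libraries and lines are group means. Cdh11 is at 2.19 and 2.72 FPKM in HE1 labelled WT and at 45.5 and 58.3 FPKM in HE1 labelled Lmo2-/-, and Snai1 is at 0 in both HE1 libraries labelled WT.

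The epithelial pair, Cdh1 (E-cadherin) and Epcam, was weakly expressed in Flk-1+ cells and at most 0.795 FPKM in HE1. Cdh1 had 3.91, 3.94 and 2.73 FPKM in WT, 2.31, 3.85 and 4.52 FPKM in Lmo2-/- and 7.91, 0.155 and 1.18 FPKM in Tal1-/- Flk-1+ replicates 0, 1 and 2. In HE1 it had 0 and 0.201 FPKM in the libraries labelled WT and 0.795 and 0 FPKM in those labelled Lmo2-/-. Every HE1 library was below every Flk-1+ library of the same genotype, although the log2 fold changes of -2.03 in WT and -1.73 in Lmo2-/- cells did not pass the test (limma adjusted p = 0.0874 and 0.0833). The limma adjusted p was 0.0194 to 0.335 in WT and 0.0206 to 0.338 in Lmo2-/- cells over all alternatives, so it depended on the processing. The highest Cdh1 value was in Tal1-/- replicate 0, the library with the highest Apob (18.6 FPKM) and Cubn (8.96 FPKM), genes of visceral endoderm. Over the 10 endoderm markers the sum was 29.0 FPKM there, against 2.45 FPKM at the lowest in Tal1-/- cells. In that library 6 of the 10 markers were listed at 0 and 3 were above 1 FPKM. Afp was at 1.14 FPKM and Sox17 at 0.233 FPKM. HE1 replicate 1 labelled WT had a sum of 19.98 FPKM, with Sox17 at 18.49 FPKM, and Cdh1 at 0.201 FPKM. The part of endoderm in the Cdh1 values was not tested.

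Epcam, which encodes an adhesion molecule of epithelia and of ES cells, had 4.29, 2.04 and 1.96 FPKM in WT, 1.70, 0.985 and 1.79 FPKM in Lmo2-/- and 2.03, 5.24 and 0.196 FPKM in Tal1-/- Flk-1+ cells. It was listed at 0 in all 4 HE1 libraries. Neither stage comparison passed the test (limma adjusted p = 0.0655 in WT and 0.120 in Lmo2-/-, with 0.0196 to 0.255 and 0.0229 to 0.373 over all alternatives). The Lmo2-/- Flk-1+ libraries were all below the WT ones, at a log2 difference of -0.56 (limma adjusted p = 1). The sum of 6 ES cell markers was 13.1 to 15.9 FPKM in WT, 4.31 to 7.81 FPKM in Lmo2-/- and 12.7 to 28.5 FPKM in Tal1-/- Flk-1+ libraries. In HE1 it was at most 0.533 FPKM. Pou5f1 had 2.62 to 16.4 FPKM and Nanog 0.144 to 6.30 FPKM in Flk-1+ libraries, and both were listed at 0 in all 4 HE1 libraries. Sox2 was listed at 0 in HE1 and in 5 of the 9 Flk-1+ libraries, with at most 0.558 FPKM in the others, and Zfp42 at 0 in 4 of the 9. The part of these cells in the Epcam and Cdh1 values was not tested, and in bulk RNA fewer cells of a type and less RNA per cell cannot be told apart.

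Cdh2 (N-cadherin), the cadherin of mesoderm and neural tissue, had, with Vim, the highest mean FPKM of the 10 genes in WT and Lmo2-/- Flk-1+ cells. It had 117.5, 52.7 and 54.8 FPKM in WT, 55.2, 77.8 and 58.2 FPKM in Lmo2-/- and 45.7, 56.8 and 71.9 FPKM in Tal1-/- Flk-1+ cells, with all genotypes overlapping. In HE1 labelled WT it fell to 25.7 and 23.4 FPKM, and the libraries labelled Lmo2-/- had 71.3 and 67.0 FPKM, within the range of Flk-1+ cells. The fall between the WT stages was -1.47 on the log2 scale (standard error, SE, 0.38, limma adjusted p = 0.0258), and without HE1 replicate 0 or 1 labelled WT the adjusted p was 0.135 or 0.142 (0.00453 to 0.142 over all alternatives). The 2 HE1 groups did not overlap, but their log2 fold change of 1.46 (95 percent interval 0.57 to 2.34) did not pass the test (limma adjusted p = 0.0627). Without WT Flk-1+ replicate 0, which holds the highest Cdh2 value, it did (limma adjusted p = 0.0280, with 0.0280 to 0.357 over all alternatives).

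Cdh11 (OB-cadherin), a cadherin of mesenchyme, lies on chromosome 8 from 102632095 to 102785642, minus strand (GENCODE, GRCm38), and differed most between the HE1 groups among the 10 genes. Flk-1+ libraries had 65.8, 26.5 and 32.1 FPKM in WT, 27.1, 39.7 and 24.8 FPKM in Lmo2-/- and 34.6, 81.7 and 69.1 FPKM in Tal1-/- cells. The genotypes overlapped at this stage. In HE1 the libraries labelled WT had 2.46 ± 0.374 FPKM (SD, n = 2; 2.19 and 2.72) and those labelled Lmo2-/- had 51.9 ± 9.07 FPKM (SD, n = 2; 45.5 and 58.3). Cdh11 was thus higher in HE1 labelled Lmo2-/- by 3.93 on the log2 scale (SE 0.50, limma adjusted p = 0.00166), and it fell by 3.51 on the log2 scale between the WT stages (SE 0.45, limma adjusted p = 0.000374). Between the Lmo2-/- stages its libraries did not overlap either, at a log2 fold change of 0.77 that did not pass the test (limma adjusted p = 0.227) and that was -0.30 after quantile normalization.

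The stage difference of Cdh11 itself differed between the genotypes. In the interaction of genotype and stage Cdh11 had a log2 value of 4.28 (95 percent interval 2.90 to 5.66, limma adjusted p = 0.0162), and of the 10 members only Cdh11 was called there. The call was lost with array weights, without Lmo2-/- Flk-1+ replicate 0 or 2 and without WT HE1 replicate 0 (limma adjusted p = 0.0558, 0.0513, 0.0601 and 0.0859, the last being the highest of all alternatives, with 0.00526 the lowest), at log2 values of 4.15 to 4.22. Over all genes tested, 0.348 percent were called in this interaction.

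Snai1 and Snai2, paralogous zinc finger repressors, had their highest values at different stages. Snai1 had 35.5, 22.8 and 11.4 FPKM in WT, 10.5, 37.3 and 19.6 FPKM in Lmo2-/- and 21.6, 31.0 and 12.4 FPKM in Tal1-/- Flk-1+ cells. In HE1 it was listed at 0 in both libraries labelled WT, and had 4.97 and 0 FPKM in those labelled Lmo2-/-. Every HE1 library was below every Flk-1+ library, and both stage comparisons were called (limma adjusted p = 0.00196 in WT and 0.00882 in Lmo2-/-, where the log2 fold change was -3.09 with SE 0.74). Without Lmo2-/- HE1 replicate 1, the library with the fewest genes above 0, the Lmo2-/- value was -1.80 and not called (limma adjusted p = 0.116, with 0.00136 to 0.116 over all alternatives).

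Snai2 (Slug), on chromosome 16 from 14705852 to 14709385, plus strand, was near 0 in Flk-1+ cells: 0, 0.146 and 0 FPKM in WT, 2.51, 2.69 and 0.480 FPKM in Lmo2-/- and 0, 0 and 0.492 FPKM in Tal1-/- replicates. In HE1 it had 1.50 and 2.12 FPKM in the libraries labelled WT and 19.1 and 38.3 FPKM in those labelled Lmo2-/-. Snai2 was higher in HE1 labelled Lmo2-/- than in HE1 labelled WT by 3.33 on the log2 scale (SE 0.56, limma adjusted p = 0.00621), and higher than in Lmo2-/- Flk-1+ cells by 3.39 (SE 0.51, limma adjusted p = 0.000663). The first of these calls was lost without WT HE1 replicate 0, with a pseudocount of 0.1 and with array weights (limma adjusted p = 0.0579, 0.0990 and 0.109, with 0.00166 to 0.342 over all alternatives). In Flk-1+ cells the Lmo2-/- libraries were all above the WT ones, at a log2 fold change of 1.35 that did not pass the test (limma adjusted p = 1), and the log2 fold change of 1.42 between the WT stages did not pass it either (limma adjusted p = 0.104, with 0.0258 to 0.317 over all alternatives).

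Within each library, Snai1 exceeded Snai2 in all 9 Flk-1+ libraries and Snai2 exceeded Snai1 in all 4 HE1 libraries. The difference of Snai2 minus Snai1 on the log2(FPKM + 1) scale was -5.19 to -1.71 in Flk-1+ cells. It was 1.32 and 1.64 in HE1 labelled WT and 1.75 and 5.30 in HE1 labelled Lmo2-/-. The same difference for Cdh2 minus Cdh1 was positive in all 13 libraries, from 2.39 in Tal1-/- Flk-1+ replicate 0 to 6.09 in Lmo2-/- HE1 replicate 1.

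Twist1, a basic helix-loop-helix factor of mesoderm and neural crest, was low throughout. It had 2.52 to 4.76 FPKM in WT, 2.0 to 3.61 FPKM in Lmo2-/- and 2.17 to 6.29 FPKM in Tal1-/- Flk-1+ cells, and 0.721 and 3.97 FPKM in HE1 labelled WT and 4.43 and 1.15 FPKM in HE1 labelled Lmo2-/-. Its groups overlapped in all 6 comparisons, and none was called.

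The Zeb genes, which encode zinc finger and homeodomain repressors, had their highest values in HE1, Zeb1 in the libraries labelled Lmo2-/- and Zeb2 in those labelled WT. Zeb1 had 18.2, 24.8 and 22.7 FPKM in WT, 17.5, 10.4 and 26.1 FPKM in Lmo2-/- and 4.08, 18.4 and 15.5 FPKM in Tal1-/- Flk-1+ cells. It had 41.7 and 31.7 FPKM in HE1 labelled WT and 83.1 and 94.0 FPKM in HE1 labelled Lmo2-/-. The rise between the Lmo2-/- stages was called (log2 fold change 2.32, SE 0.53, limma adjusted p = 0.00681), whereas the log2 fold changes between the WT stages (0.72, limma adjusted p = 0.447) and from WT to Lmo2-/- HE1 (1.26, limma adjusted p = 0.238) did not pass the test. After quantile normalization the Lmo2-/- stage difference was 1.24 and no longer called (limma adjusted p = 0.171, the highest of all alternatives, with 0.00178 the lowest).

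Zeb2, which is expressed in haematopoietic and endothelial progenitors, had 46.3, 38.4 and 33.6 FPKM in WT, 23.2, 21.7 and 26.1 FPKM in Lmo2-/- and 13.7, 17.2 and 26.7 FPKM in Tal1-/- Flk-1+ cells. All 6 mutant libraries were below all 3 WT libraries. The log2 fold changes were -0.70 in Lmo2-/- (95 percent interval -1.34 to -0.07, limma adjusted p = 1) and -1.04 in Tal1-/- cells (95 percent interval -1.67 to -0.40, limma adjusted p = 0.459), and neither passed the test. The comparisons share the WT libraries. In HE1 Zeb2 had 76.7 and 68.6 FPKM in the libraries labelled WT and 60.0 and 54.3 FPKM in those labelled Lmo2-/-, a difference of -0.34 that did not pass the test (limma adjusted p = 0.639). The rise between the Lmo2-/- stages was called with a log2 difference of 1.24 (SE 0.33, limma adjusted p = 0.0154), but was 0.17 after quantile normalization (limma adjusted p = 0.807, the highest of all alternatives, with 0.0131 the lowest), and the log2 fold change of 0.88 between the WT stages did not pass the test (limma adjusted p = 0.119) except with array weights (0.98, limma adjusted p = 0.0336). Array weights, which give outlying libraries less influence, also ended the Lmo2-/- stage calls of Zeb2, Zeb1 and Snai1 (limma adjusted p = 0.142, 0.102 and 0.0766).

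Vim (vimentin), the filament of mesenchymal and endothelial cells, was the most abundant member in HE1. It had 97.9, 58.1 and 63.8 FPKM in WT, 58.9, 78.6 and 57.2 FPKM in Lmo2-/- and 73.5, 120.7 and 44.2 FPKM in Tal1-/- Flk-1+ cells. HE1 libraries had 835 and 954 FPKM where labelled WT and 481 and 942 FPKM where labelled Lmo2-/-. Vim rose with stage in both genotypes, by 3.63 in WT and 3.37 in Lmo2-/- on the log2 scale (SE 0.43 in each, limma adjusted p = 0.000238 and 0.000273), and the genotypes overlapped at each stage.

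**Figure D2:**
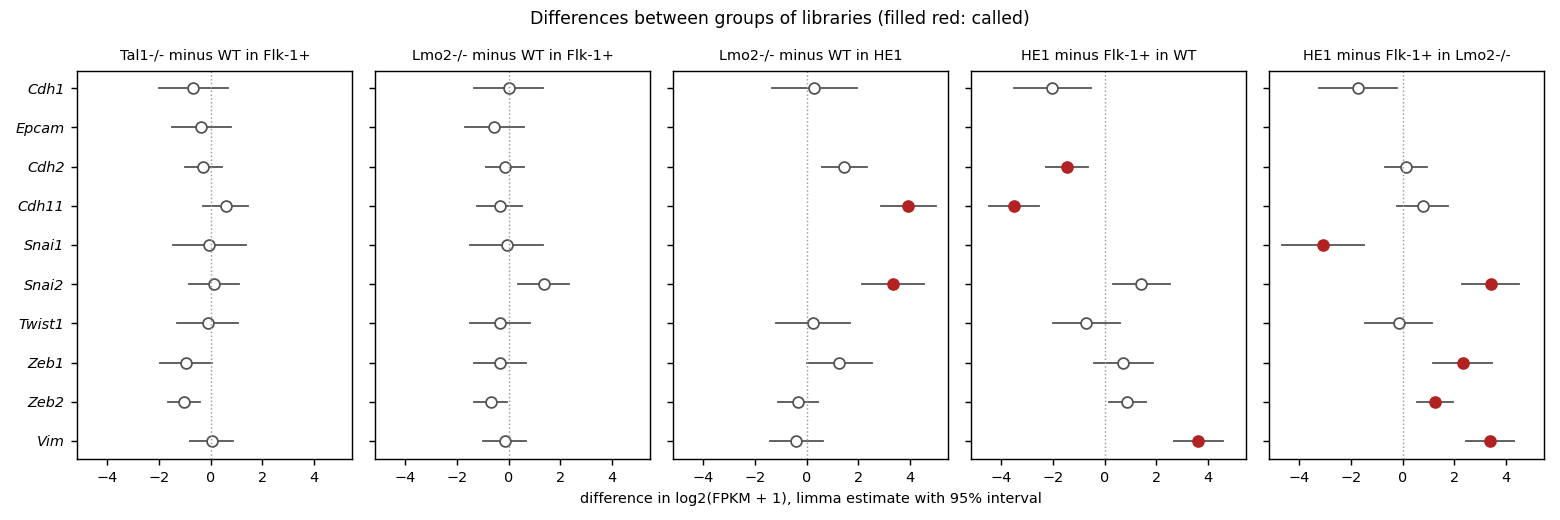
Differences between groups of libraries for the 10 genes (vertical axis) in 5 comparisons, as limma estimates of the difference in log2(FPKM + 1) with 95 percent intervals. Filled red points were called, and comparisons against a group listed at 0 throughout (Epcam in HE1, Snai1 in HE1 labelled WT) are left out. No point is filled in the Flk-1+ comparisons, and Cdh11 and Snai2 are filled in the HE1 comparison.

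Between genotypes in Flk-1+ cells, 0 of the 10 genes were called by limma in any comparison, where Cdh1, Epcam, Twist1 and Snai2 were below the FPKM criterion. Over all genes tested 0.0 percent were called from WT to Lmo2-/- and 0.0 percent from WT to Tal1-/-, and 0.0145 percent from Lmo2-/- to Tal1-/-. At an unadjusted p of 0.05 there were 2 members for Lmo2-/- against WT (Snai2 and Zeb2), 1 from WT to Tal1-/- (Zeb2) and 2 from Lmo2-/- to Tal1-/- (Cdh11 and Snai2), as against 307, 843 and 822 of all genes. The groups did not overlap for 3, 1 and 0 members, where 8.21, 12.6 and 13.3 percent of all tested genes did not. The median log2 fold changes of the members were -0.24, -0.20 and -0.05, and those of all tested genes were between -0.01 and 0.

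From WT to Lmo2-/- HE1, 2 of 10 members were called, Cdh11 and Snai2, both higher in the libraries labelled Lmo2-/-. Over all genes tested 3.01 percent were called, 2.15 percent higher and 0.855 percent lower. The groups did not overlap for 5 members, 4 higher (Cdh2, Cdh11, Snai2, Zeb1) and 1 lower (Zeb2), but with 2 libraries in each group 39.7 percent of all genes did not overlap. The members' median was 0.77 and that of all tested genes 0.15. With only these 4 libraries in the fit no gene was called, and the adjusted p was 0.263 for Cdh11 and 0.342 for Snai2 (limma).

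From Flk-1+ cells to HE1, the WT libraries had 4 members called, of which Vim rose and Cdh2, Cdh11 and Snai1 fell. Over all genes 6.98 percent were called, 6.04 percent higher and 0.942 percent lower. In the Lmo2-/- libraries 5 members were called: Snai2, Zeb1, Zeb2 and Vim rose, and Snai1 fell. Here the calls covered 19.6 percent of all genes, 17.2 percent higher and 2.38 percent lower. The stages did not overlap for 9 and 8 members, and for 44.9 and 47.0 percent of all genes. Members' medians were -1.10 in WT and 0.45 in Lmo2-/- cells, where those of all tested genes were 0.11 and 0.30. Quantile normalization brought the latter to -0.04 and 0.02, and changed the share of calls that were higher from 86.5 to 64.1 percent in WT and from 87.9 to 54.9 percent in Lmo2-/- cells. From WT to Lmo2-/- HE1 it changed that share from 71.6 to 58.0 percent.

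Mesenchymal genes, a list of matrix, contractile and receptor genes chosen without the 10 members, were also called between the HE1 groups. Of 28 tested, 7 were higher and 1 was lower in HE1 labelled Lmo2-/- than in HE1 labelled WT, with a median log2 fold change of 1.19 beside 0.15 over all tested genes. Over all genes 2.15 percent were called higher and 0.855 percent lower. Pdgfra, a receptor for platelet-derived growth factor in mesoderm and fibroblasts, had 37.3 and 94.5 FPKM against 2.98 and 1.01 FPKM (log2 fold change 4.42, limma adjusted p = 0.000750). Tgfbi, a matrix protein induced by TGF-beta, had 39.8 and 60.7 FPKM against 2.11 and 1.94 FPKM (4.05, limma adjusted p = 0.00155). Pdgfrb, the receptor of pericytes, had 30.3 and 67.7 FPKM against 2.38 and 2.28 FPKM (3.80, limma adjusted p = 0.00267). In all 3 the lower library labelled Lmo2-/- was above both libraries labelled WT. Without Lmo2-/- HE1 replicate 0, the list's median was 1.52, beside 0.067 over all tested genes. Without replicate 1 it was 0.90, beside 0.073.

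Between the stages, 9 of the 28 mesenchymal genes were called higher in HE1 and 1 lower in WT, where 6.04 percent of all genes were higher, and 18 were higher and 0 lower in Lmo2-/- cells, where 17.2 percent were. The list's medians were 1.06 and 2.08. After quantile normalization 7 were higher and 2 lower in WT, and 12 and 0 in Lmo2-/- cells. Acta2, smooth muscle actin, led both, with less than 1 FPKM in all WT and Lmo2-/- Flk-1+ libraries, 165 and 114 FPKM in HE1 labelled WT and 263 and 816 FPKM in HE1 labelled Lmo2-/-. Postn, a matrix protein of mesenchyme, was listed at 0 in the Lmo2-/- Flk-1+ libraries and had 99.7 and 371.6 FPKM in HE1 labelled Lmo2-/-. Pdgfra was the gene that fell between the WT stages (log2 fold change -3.39, limma adjusted p = 0.000396), from 42.8, 22.5 and 24.3 FPKM. In the interaction 3 of the 28 were called, all higher. After quantile normalization 1 was called, higher. The list's median in the interaction was 1.15, beside 0.23 over all tested genes. Without Lmo2-/- HE1 replicate 0 it was 1.42, beside 0.26, and without replicate 1 it was 0.74, beside 0.15.

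Of 32 epithelial junction and keratin genes 22 were tested, and 3 were called in HE1 labelled Lmo2-/- against HE1 labelled WT, all higher. Of all genes 2.15 percent were called higher. Dsp, the desmosomal linker desmoplakin, had 94.9 and 145 FPKM against 7.06 and 7.05 FPKM (log2 fold change 3.88, limma adjusted p = 0.000751). Krt18 and Krt8, which pair in simple epithelia, had 27.7 and 85.5 FPKM against 8.70 and 5.14 FPKM and 20.9 and 79.3 FPKM against 9.81 and 5.37 FPKM (log2 fold changes 2.69 and 2.34). Without Lmo2-/- HE1 replicate 1, in which the keratins were highest, and after quantile normalization, only Dsp was called. The list's median was 0.11, beside 0.15 over all tested genes. Without Lmo2-/- HE1 replicate 0 it was 0, beside 0.067. Without replicate 1 it was 0.30, beside 0.073, and after quantile normalization 0.17, beside 0.070.

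Between the WT stages 4 of these 22 genes were higher in HE1 and 2 were lower, where 6.04 percent of all genes were higher and 0.942 percent lower. In Lmo2-/- cells 3 were higher, a smaller share than the 17.2 percent of all genes. After quantile normalization the counts were 1 higher and 1 lower in Lmo2-/- cells, and 2 and 2 in WT. The list's Lmo2-/- median was 0.30, beside 0.30 over all tested genes. Without Lmo2-/- HE1 replicate 0 it was -0.07, beside 0.39, and without replicate 1 it was 0.02, beside 0.24. Tjp1, the tight junction scaffold ZO-1 that endothelium shares with epithelium, had 340 and 313 FPKM in HE1 labelled WT against 56.9, 35.2 and 56.4 FPKM in Flk-1+ cells (log2 fold change 2.73, limma adjusted p = 0.000296), and 444 and 334 FPKM in HE1 labelled Lmo2-/-. The desmosomal genes Dsg2 and Dsp fell between the WT stages, by 3.17 and 2.37 on the log2 scale (limma adjusted p = 0.00112 and 0.00198), while Dsp rose by 1.89 between the Lmo2-/- stages (limma adjusted p = 0.00412), a call lost after quantile normalization (0.81, limma adjusted p = 0.196). In the interaction 1 of the 22 genes was called, and the list's median was 0.55, beside 0.23 over all tested genes. Without Lmo2-/- HE1 replicate 0 it was 0.55, beside 0.26, and without replicate 1 it was 0.60, beside 0.15.

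Further EMT regulators rarely passed the test. Of 13 tested genes for inducing factors and ligands, only Tcf4, a basic helix-loop-helix factor, was called, higher in HE1 in both genotypes (log2 fold changes 1.19 and 1.20, limma adjusted p = 0.0391 and 0.0192). Both Tcf4 calls were lost after quantile normalization (0.71 and 0.10, limma adjusted p = 0.194 and 0.873), and the Lmo2-/- one also without HE1 replicate 1 (0.86, limma adjusted p = 0.144). Of the factors that oppose EMT, among them the Ovol, Grhl and Esrp genes, 5 of 10 were tested and 0 were called by limma in any comparison. From Flk-1+ cells to HE1, 2 of 5 had an unadjusted limma p below 0.05 in WT and 1 of 5 in Lmo2-/- cells. So did 3302 and 5338 of all 13802 genes tested. In the genotype comparison in HE1, 0 of the 13 inducing genes were called and 4 had an unadjusted p below 0.05, as did 2851 of all 13802 genes. The median of the 13 was 0.42, beside 0.15 over all tested genes. Without Lmo2-/- HE1 replicate 0 it was 0.54, beside 0.067, and without replicate 1 it was 0.23, beside 0.073. Over the 90 tested genes of all 6 lists, 0 were called by limma between genotypes in Flk-1+ cells, where 5, 13 and 8 passed an unadjusted p of 0.05 for Lmo2-/- against WT, Tal1-/- against WT and Tal1-/- against Lmo2-/-. Over all 13802 genes 307, 843 and 822 did.

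**Figure D3:**
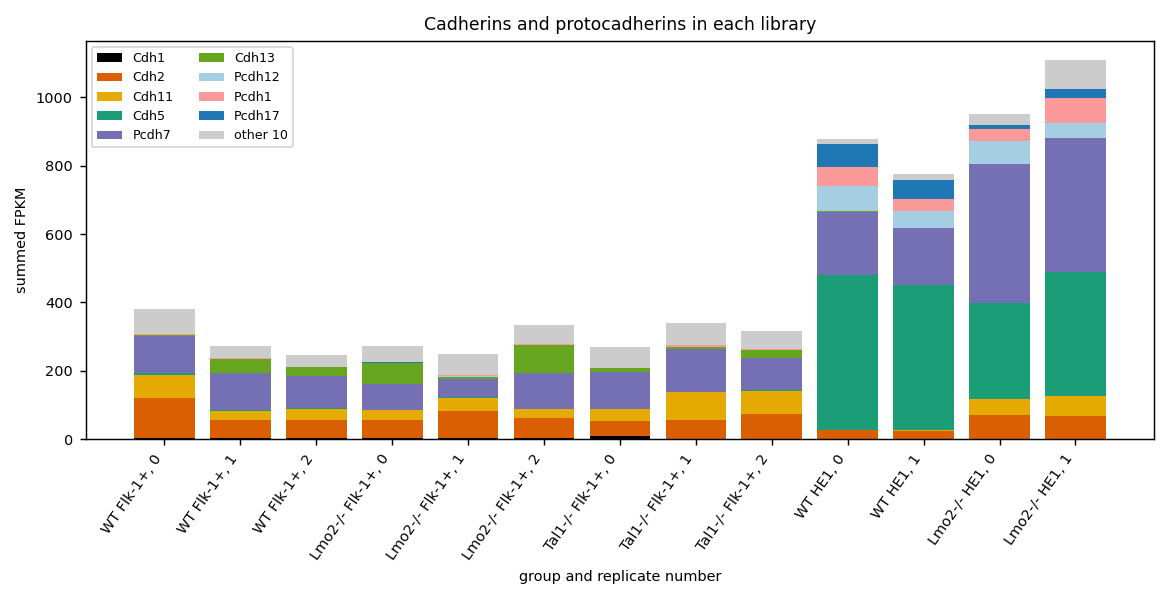
Summed FPKM (vertical axis) of 19 cadherin and protocadherin genes, stacked by gene in each library. They are Cdh1, Cdh2, Cdh11 and the 16 that passed the filter from a chosen list of 32 others. Cdh5 makes up 51.5 and 54.5 percent of the sum in HE1 labelled WT, and Pcdh7 42.5 and 35.3 percent in HE1 labelled Lmo2-/-.

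The 19 cadherins and protocadherins chosen differed in composition between the stages. Desmosomal cadherins such as Dsg2 and the clustered protocadherins were not among them, and the percentages depend on that choice. In Flk-1+ cells Pcdh7, a protocadherin, was the highest of the 19 in 7 libraries and Cdh2 in the other two (WT replicate 0 and Lmo2-/- replicate 1). Cdh2 made up 16.7 to 31.2 percent of the summed FPKM in Flk-1+ libraries, 2.93 and 3.01 percent in HE1 labelled WT and 7.48 and 6.03 percent in HE1 labelled Lmo2-/-, and Cdh11 made up 7.45 to 24 percent, 0.25 and 0.35 percent and 4.78 and 5.25 percent. In HE1 Cdh5 (VE-cadherin) had 452 and 423 FPKM in the libraries labelled WT and 281 and 365 FPKM in those labelled Lmo2-/-, against at most 5.48 FPKM in Flk-1+ libraries (log2 fold changes with stage 6.65 and 6.97, limma adjusted p = 4.56e-06 and 3.27e-06). Pcdh7 had 184 and 168 FPKM in HE1 labelled WT and 405 and 392 FPKM in HE1 labelled Lmo2-/-, where it was the highest of the 19.

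Of 16 other cadherins tested, 4 rose and 1 fell with stage in WT, and 6 rose and 2 fell in Lmo2-/- cells. Over all genes tested 6.04 percent were called higher and 0.942 percent lower in WT, and 17.2 and 2.38 percent in Lmo2-/- cells. The endothelial protocadherin Pcdh12 rose in both genotypes (log2 fold changes 4.73 and 5.24), and Cdh4 (R-cadherin) fell in both (-3.34 and -3.52). Pcdh17 also rose in both (5.29 and 3.88), to 66.3 and 54.0 FPKM in HE1 labelled WT and 13.8 and 26.4 FPKM in HE1 labelled Lmo2-/-. Cdh13 fell in Lmo2-/- cells (-5.06), from 62.5, 7.29 and 84.1 FPKM to 0.130 and 0 FPKM, and had a log2 fold change of -2.57 in WT that did not pass the test (limma adjusted p = 0.146). Between the HE1 groups 0 of the 16 were called by limma, and 4 had an unadjusted p below 0.05, as did 2851 of all 13802 genes. After quantile normalization 1 was called lower. The median of the 16 was 0, and it was also 0 without Lmo2-/- HE1 replicate 0 or 1. Among 6 catenins tested, which link cadherins to actin, 2 rose with stage in WT and 4 in Lmo2-/- cells, led by Jup (plakoglobin), at 5.91 to 10.5 FPKM in WT Flk-1+ cells and 34.0 and 41.8 FPKM in HE1 labelled WT. Of all genes 6.04 and 17.2 percent were higher. Without Lmo2-/- HE1 replicate 1 the catenin counts were 3 and 2, and after quantile normalization 0 catenins were called in either genotype. Between the HE1 groups 0 catenins were called by limma, and 2 had an unadjusted p below 0.05. Their median was 0.67, beside 0.15 over all tested genes, and 0.59, beside 0.067, without Lmo2-/- HE1 replicate 0. Without replicate 1 it was 0.50, beside 0.073, and after quantile normalization 0.16, beside 0.070.

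**Figure D4:**
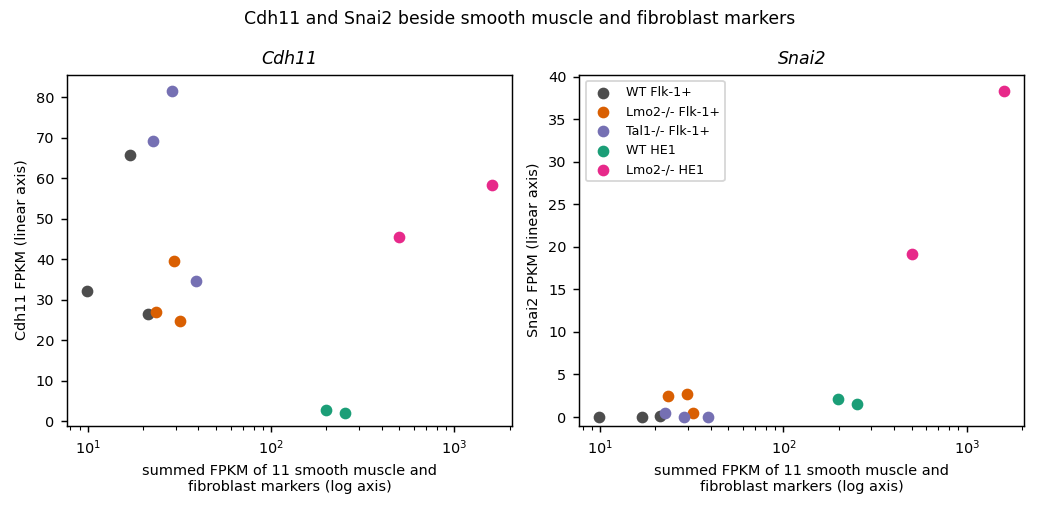
FPKM of Cdh11 (left) and Snai2 (right) on linear axes against the summed FPKM of 11 smooth muscle and fibroblast markers on a log axis, 1 point for each of the 13 libraries, coloured by group. The HE1 libraries labelled Lmo2-/- are farthest right, at 500.2 and 1602 FPKM, and have the highest Snai2, while Flk-1+ libraries reach as high in Cdh11 at 9.89 to 38.8 FPKM of markers.

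The summed level of smooth muscle and fibroblast markers was higher in HE1 labelled Lmo2-/-, the group with more Cdh11 and Snai2, than in HE1 labelled WT. Between the HE1 libraries labelled WT, replicate 0 had the higher sum but the lower Cdh11 and Snai2. The sum of 11 such genes was 252 and 198 FPKM in the libraries labelled WT and 500.2 and 1602 FPKM in those labelled Lmo2-/-, and 7 of the 11 were above 1 FPKM in each of the latter against 5 and 6 in the former. The rise was carried by Acta2, Postn, Col1a1 (6.64 and 5.23 FPKM against 29.6 and 259 FPKM), Col1a2 and Col3a1, whereas Tagln, a smooth muscle actin-binding protein, had 50.5 and 53.7 FPKM in HE1 labelled WT and 59.0 and 24.1 FPKM in HE1 labelled Lmo2-/-. Of the more specific markers Myh11 was at most 0.617 FPKM, Cnn1 at most 0.853 FPKM and Dcn at most 0.988 FPKM in HE1, and Thy1 was listed at 0 in all 4 libraries. Lum, another fibroblast marker of the 11, was above 1 FPKM in both HE1 libraries labelled Lmo2-/-. Acta2, Tagln, Postn, Thy1 and the collagens are also in the mesenchymal list above. Without Lmo2-/- HE1 replicate 1, in which their sum was highest, Cdh11 and Snai2 were still called (log2 fold changes 3.75 and 2.85, limma adjusted p = 0.0141 and 0.0396). The 6 genes of the sorted populations summed to 993 and 998 FPKM in HE1 labelled WT and 869 and 875 FPKM in HE1 labelled Lmo2-/-. The part of other cells in the differences was not tested.

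For each member the genes with the most similar profile were sought as a description, by Pearson r of log2(FPKM + 1) over the 13 libraries, which share stages and genotypes. Cdh11 was most like Pdgfra (r = 0.949), and Cdh2 most like Amot (0.956), Snai2 most like Rhobtb1 (0.961), Zeb1 most like Pkd2 (0.978), Zeb2 most like the endothelial and haematopoietic factor gene Fli1 (0.963) and Vim most like the focal adhesion kinase gene Ptk2 (0.986). All 6 of these stayed first without Lmo2-/- HE1 replicate 1. Snai1 was most like Evx1, a homeobox gene of the primitive streak (0.967), which ranked at place 4 without that library, and Cxcr4 (0.962). The weakly expressed members were most like Otx1 for Cdh1 (0.921), Unc80 for Epcam (0.966) and Arl14ep for Twist1 (0.900). Among the members the highest r was that of Cdh2 with Cdh11 (0.882) and the lowest that of Snai1 with Vim (-0.880) over the 13 libraries, and within the 9 Flk-1+ libraries Snai1 with Vim was 0.732.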

How the data were processed

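RNAseq libraries (stranded mRNA kit, paired-end reads) of Flk-1+ cells and HE1 were used, 13 in all; the 5 samples of the labels hold 2 or 3 libraries each, with replicate numbers taken from the column names. The authors aligned reads to GRCm38 with TopHat 2.0.9, assembled transcripts with Cufflinks 2.0.0 and deposited FPKM per library from Cuffnorm, beside FPKM per condition, which were not used in any test. In HE1 labelled Lmo2-/- the FPKM per condition was 28.0 for Cdh11 and 10.2 for Snai2, against library means of 51.9 and 28.7. In HE1 labelled WT it was 2.06 and 1.24, against 2.46 and 1.81. For Cdh11 in Lmo2-/- Flk-1+ cells it was 28.1, against 30.5. The reason for these differences was not tested. A deposited comparison table of the authors' fold changes, p-values and q-values was not used, and neither were ChIPseq and DNase data. All per-library columns were used. The depth is unknown, so no counting intervals are given.

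Genes with a locus above 200 bp and an FPKM of 1 or more in any 2 libraries or more were tested with limma 3.58.1 (R 4.3.3, mean-variance trend, two-sided, Benjamini-Hochberg over 13802 genes) on log2(FPKM + 1), with group as the factor. Calls and the exact permutation test (two-sided, on mean FPKM) are as given above. The fit was tested on simulated data. Summaries and figures used Python 3.11.15 (pandas 2.3.3, numpy 2.4.6, matplotlib 3.10.9, scipy 1.17.1). Gene positions are from GENCODE.

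The members and lists were chosen with earlier results of these data known. All members are given in every library, and a fold change is printed only where a member was called or the groups did not overlap. List genes are named where they were among the 3 largest rises or falls of the calls without overlap. A list gene that met this rule is not reported here. Alternatives were a pseudocount of 0.1, no filter, no FPKM criterion, quantile normalization, separate fits of the groups compared, array weights, a replicate block and each library left out. Counts and medians of list genes without an HE1 library labelled Lmo2-/- or after quantile normalization were added after seeing the data.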

Additional observations from a re-analysis of the deposited data

Results flagged for a closer look

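The difference between the stages of Cdh11 differed between the genotypes by a test of the difference itself. The interaction of genotype and stage had a value of 4.28 on log2(FPKM + 1) (limma, SE 0.64, adjusted p = 0.0162), with a fall of 3.51 on the log2 scale between the WT stages and a log2 fold change of 0.77 between the Lmo2-/- stages. The call was lost with array weights (adjusted p = 0.0558) and without Lmo2-/- Flk-1+ replicate 0 or 2 or WT HE1 replicate 0 (0.0513 to 0.0859). The HE1 directions rest on the labels, since Lmo2 itself did not separate the HE1 libraries.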

How the results depend on the processing

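Of 540 values of the 27 printed fold changes and adjusted p-values under 20 alternatives, 517 kept direction and call status, 20 were no longer called, 2 became called and 1 changed sign: Cdh11 between the Lmo2-/- stages, at -0.30 after quantile normalization. A call also needs a mean FPKM above 10. These counts therefore leave out adjusted p-values that fell below 0.05 for Cdh1 and Epcam between the stages of both genotypes and for Snai2 between the WT stages. The causes were not tested. Members called from WT to Lmo2-/- HE1 numbered 1 with a pseudocount of 0.1, 0 with only the groups compared in the fit, 1 with array weights and 1 to 3 with 1 library left out. Between the Lmo2-/- stages they numbered 3 after quantile normalization, 2 with array weights and, in the interaction, 0 with array weights and 0 to 2 with 1 library left out, Snai2 being the second without Lmo2-/- HE1 replicate 0. Over all genes the calls ranged from 976 to 3821 between the Lmo2-/- stages, 336 to 1682 between the WT stages, 0 to 2182 from WT to Lmo2-/- HE1 and 5 to 1170 in the interaction, and in Flk-1+ cells from 0 to 2 (Lmo2-/- against WT), 0 to 15 (Tal1-/- against WT) and 0 to 8 (Tal1-/- against Lmo2-/-). Deviations of same-numbered libraries from their group means correlated at -0.184 to 0.169. Differently numbered libraries were not compared, so these values cannot decide whether the replicate numbers pair the libraries. With the replicate number as a block, 5, 3, 2 and 1 members were called between the Lmo2-/- stages, between the WT stages, from WT to Lmo2-/- HE1 and in the interaction, and 0 in each Flk-1+ comparison; Cdh2 between the WT stages was the member lost (log2 fold change -1.49, limma adjusted p = 0.0557), and all-gene calls in the same order were 2189, 704, 313 and 14.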
